A study of Mus musculus with 12 samples.

Results

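The response to transforming growth factor beta (TGFb) that remained after an siRNA against Bmal1 was measured by comparing 3 TGFb libraries with 3 vehicle libraries, all from cells given the Bmal1 siRNA, across the genes of the deposited expression table. These are 6 of the 12 RNA sequencing libraries of the series; the other 6, from cells given a scrambled siRNA and the same treatments, served as controls. All 4 groups, with 3 libraries each, came from EMS404, a mouse hepatic stellate cell line of the C57Bl6 strain that is immortalised with SV40 and expresses human TLR4, so both features are shared by treated and control cells and the results concern 1 line. TGFb was given at 10 ng/mL, starting 48 h after transfection, and RNA was taken after 24 h of it. Of the 15720 genes in the table, the 11208 with a mean of at least 0.5 FPKM (fragments scaled to transcript length and library size) were tested. Triplicates are called biological in the series text, yet no label names separate cultures; p-values therefore reflect only how much these libraries differed among themselves, and that spread may be technical.

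TGFb binds a pair of receptor kinases that phosphorylate SMAD2 and SMAD3, which join SMAD4 and switch on matrix, cytoskeletal and inhibitor genes, while genes of the Id family are typical targets of the related BMP branch. In hepatic stellate cells, the vitamin A-storing pericytes of the liver sinusoid, this pathway drives the change into contractile myofibroblasts that deposit scar collagen. BMAL1, encoded by Arntl, pairs with CLOCK to activate the period, cryptochrome and Rev-erb genes of the circadian clock through E-box elements.

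Arntl (chr7:113207465-113314126 on the plus strand of mm10) checks the labels. It stood at 3.9, 3.87 and 3.59 FPKM in the vehicle libraries with Bmal1 siRNA and at 5.43, 5.19 and 4.91 FPKM in those with scrambled siRNA, without overlap, a level 26.9% lower. Under TGFb the values were 5.05, 4.01 and 4.0 FPKM against 10.5, 10.8 and 10.9 FPKM, 59.3% lower. Two-sided exact permutation tests gave p = 0.1 for each comparison, the smallest that 3 against 3 libraries allow. In the limma fit the log2 difference (on log2(FPKM + 1), used for all log2 values here) was -0.37 under vehicle (adjusted p = 0.049) and -1.13 under TGFb. With a pseudocount of 5 in place of 1, the vehicle difference was -0.21 (adjusted p = 0.0516) and was no longer called. Within the Bmal1 siRNA libraries, the TGFb values of Arntl all lay above the vehicle values (exact permutation p = 0.1). Arntl did not pass the limma test for TGFb there (log2 change 0.16, SE 0.07, adjusted p = 0.168). The change with scrambled siRNA was 0.92 and the interaction -0.77 (adjusted p = 0.000526).

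The 3 TGFb libraries with Bmal1 siRNA did not respond equally, and replicate 2 stood apart. On the first principal component of all 12 libraries, which held 71.0% of the variance, vehicle libraries of both siRNAs lay between -17.8 and -15.4 and control TGFb libraries between 27.2 and 29.8. The TGFb libraries with Bmal1 siRNA lay between these at 12.99, -5.13 and 8.40. Across the 4872 genes called with TGFb in the scrambled libraries alone, each library's log2 difference from the Bmal1 siRNA vehicle mean was set against the control change, and the slope gave the percentage of the control response. It was 58.5%, 24.1% and 49.7% in replicates 1, 2 and 3 (44.1% ± 17.9, SD, n = 3), and between -1.56% and 0.894% in the vehicle libraries. The share was lower for the 1751 genes that rose in control cells (47.1%, 21.7% and 41.9%) than for the 3121 that fell (68.5%, 26.2% and 56.6%) in each of the 3 libraries; this difference was not tested. Results are given with all 3 libraries, and without replicate 2 where that matters; what set replicate 2 apart was not tested.

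**Figure D1:**
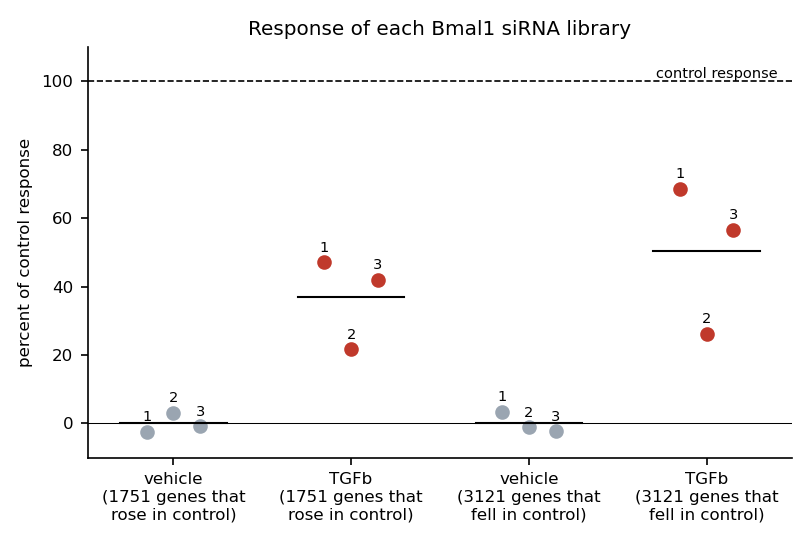
Percent of the control TGFb response (y axis) in each Bmal1 siRNA library, for genes that rose and genes that fell in control cells; points are libraries marked by replicate number, horizontal bars are means of 3, and the dashed line is the control response. The vehicle points lie near 0, TGFb replicate 2 is the lowest TGFb point in both gene groups, and falling genes kept a higher percentage (mean 50.4%) than rising genes (mean 36.9%).

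Of the 11208 genes tested, 2128 (19.0%) passed an adjusted p under 0.05 (limma, Benjamini-Hochberg over all genes) for TGFb after Bmal1 siRNA, 998 higher (8.9%) and 1130 lower (10.1%). Most changes were small: 27 of the genes called (0.241% of those tested) had a log2 rise of at least 1 and 72 (0.642%) a fall of that size, 99 in all (0.883%). The libraries of the 2 treatments did not overlap for 3971 genes (35.4%). With scrambled siRNA 5105 genes (45.5%) were called. The median absolute log2 change over all genes was 0.102 after Bmal1 siRNA and 0.165 in control cells. Without TGFb replicate 2, 3265 genes (29.1%) were called, among them 2044 of the 2128. Leaving out TGFb replicate 1 or 3 left 1316 and 1171 genes called, and leaving out vehicle replicate 2 or 3 left 1294 and 1336, so the number rests on single libraries in both groups.

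The direction of the remaining response was mostly that of control cells. Of the 2128 genes, 1656 were called in the same direction in control cells, which is 77.8% of the genes called after Bmal1 siRNA and 32.4% of those called in control cells; 34 were called in the opposite direction and 438 were not called in control cells. The 2 responses share no library, and across all tested genes, which are not independent replicates, Pearson's r between them was 0.753. The interaction, which tests whether the response differs between the siRNAs, was called for 578 of the 2128 genes (27.2%) and for 14.4% of all genes tested. Among these 578, the change after Bmal1 siRNA was smaller than in control cells for 484 genes and lay beyond the control change in the sense of the response for 94. A further 996 genes were called in control cells and in the interaction but not after Bmal1 siRNA. The 1612 interaction calls over all genes split into 993 higher (8.86% of genes tested) and 619 lower (5.52%), 61.6% higher on the deposited scale; this share was 42.1% after median-of-ratios scaling, 44.3% after scaling to equal totals and 49.4% after quantile normalization.

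**Figure D2:**
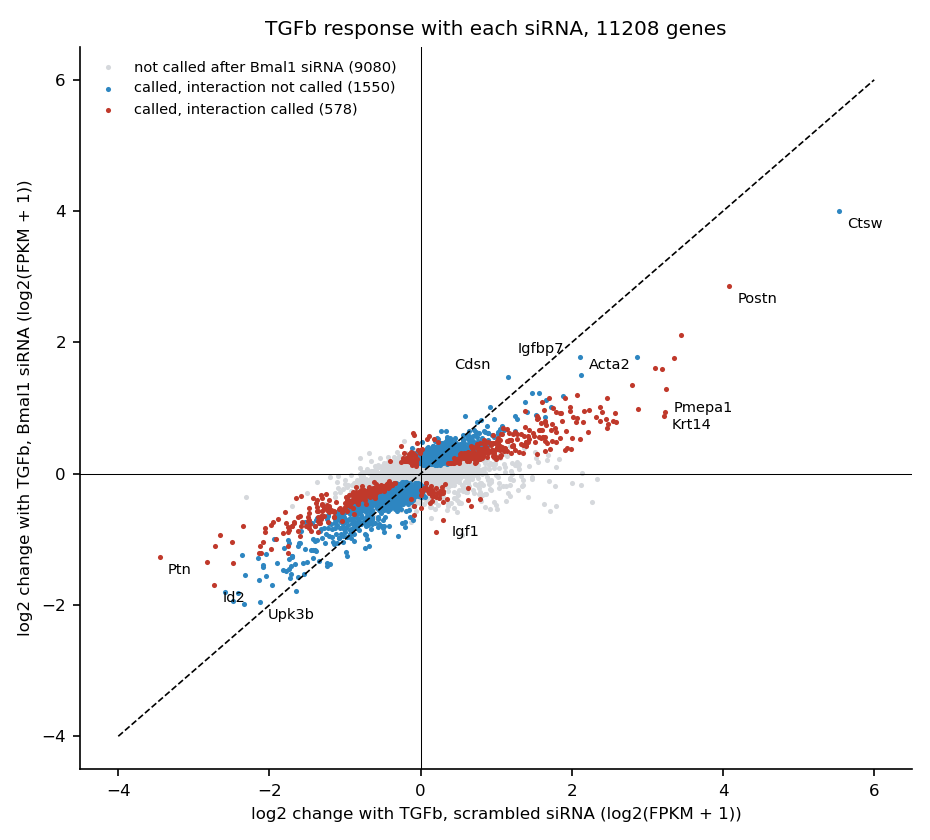
Log2 change with TGFb after Bmal1 siRNA (y axis) against that with scrambled siRNA (x axis) for each gene tested, from log2(FPKM + 1) group means; colour gives the call after Bmal1 siRNA and in the interaction, and the dashed line marks equal changes. Most of the called genes lie between the horizontal axis and the dashed line, on the side of 0 where the control change lies, and Cdsn lies above the dashed line.

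The 12 largest rises after Bmal1 siRNA had log2 changes between 1.29 and 4.0, and included matrix and contractile genes. Ctsw, which encodes the protease cathepsin W (chr19:5465043-5468507, minus strand, mm10), stood at 0.47, 0.24 and 0.070 FPKM with vehicle and at 31.9, 7.77 and 26.8 FPKM with TGFb. All TGFb libraries lay far above the vehicle libraries, replicate 2 lowest, and the log2 change was 4.0 (SE 0.35, adjusted p = 2.86e-05) against 5.54 in control cells (interaction adjusted p = 0.0574). Postn, which encodes the matricellular protein periostin (chr3:54361109-54391037, plus strand), stood at 1.58, 1.33 and 1.39 FPKM with vehicle and 21.3, 10.4 and 20.6 FPKM with TGFb, a log2 rise of 2.86 (SE 0.19, adjusted p = 8.62e-06) against 4.08 in control cells (interaction adjusted p = 0.0102). Acta2, the smooth muscle actin that defines myofibroblasts (chr19:34241090-34255590, minus strand), stood at 51.7, 56.6 and 57.9 FPKM with vehicle and 185, 114 and 188 FPKM with TGFb, 2.93-fold higher on average (log2 change 1.5, SE 0.14, adjusted p = 4.04e-05). Its control change was 2.12, and the interaction (-0.62, adjusted p = 0.0526) missed the threshold. Mmp2, which encodes a gelatinase (chr8:92827291-92853420, plus strand), stood at 8.37, 8.68 and 8.64 FPKM with vehicle and 25.4, 19.6 and 25.7 FPKM with TGFb, and its log2 rise of 1.35 (SE 0.10) was smaller than the control change of 2.8 (interaction adjusted p = 7.44e-05). Replicate 2 was the lowest TGFb library for each of these 4 genes, and no groups overlapped.

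A further 7 of the 12 largest rises were those of the troponin gene Tnnt2 (log2 change 1.78), the IGF-binding protein-related gene Igfbp7 (1.78), the laminin chain Lamb3 (1.76), the secretory kinase partner Fam20a (1.61), the ectonucleotidase gene Nt5e (1.59), the corneodesmosin gene Cdsn (1.47) and the microfibril gene Mfap4 (1.29). Igfbp7 stood at 20.4, 18.6 and 18.9 FPKM with vehicle and 92.9, 45.0 and 76.6 FPKM with TGFb, and its change was near that of control cells (2.11, interaction adjusted p = 0.443). Cdsn was unlike the others: its TGFb libraries, at 7.22, 7.65 and 9.44 FPKM, were nearly equal, with replicate 2 above replicate 1, and all lay above the vehicle libraries at 1.95, 2.65 and 2.21 FPKM. For Lamb3, Fam20a, Nt5e and Mfap4 the change was smaller than in control cells, with interactions of -1.6, -1.49, -1.6 and -1.96 (adjusted p at most 0.00388). Whether reads were counted by strand is not stated, and Ctsw, Igfbp7 and Mfap4 share 9, 85 and 89 exon bases with the protein-coding genes Fibp, Polr2b and Mapk7, whose reads cannot be told apart from theirs there.

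The 12 largest falls had log2 changes between -1.99 and -1.56. Aldh1a1, a retinaldehyde dehydrogenase (chr19:20492715-20643465, plus strand), stood at 35.1, 39.8 and 42.1 FPKM with vehicle and 4.92, 17.3 and 8.44 FPKM with TGFb. It was 3.81-fold lower on average (log2 change -1.99, SE 0.28, adjusted p = 0.000435), with replicate 2 the highest TGFb library. Its near-identical neighbour Aldh1a7 fell too (-1.78), and the counting could split reads between them. Upk3b, a uroplakin of mesothelial cells (chr5:136038496-136046487, plus strand), stood at 179, 193 and 189 FPKM with vehicle and 31.1, 75.6 and 44.8 FPKM with TGFb, a log2 fall (-1.96, SE 0.22, adjusted p = 0.000107) near that of control cells (-2.13, interaction adjusted p = 0.764). Id2, which encodes an inhibitor of helix-loop-helix factors (chr12:25093799-25097140, minus strand), stood at 15.7, 16.9 and 18.0 FPKM with vehicle and 3.69, 6.41 and 3.8 FPKM with TGFb, and its change of -1.7 was smaller than the -2.74 of control cells (interaction adjusted p = 0.0106).

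A further 7 of the 12 largest falls were those of the galectin Lgals2 (-1.94), the lipopolysaccharide-binding protein Lbp (-1.8), transferrin (Trf, -1.69), lubricin (Prg4, -1.61), the imprinted zinc-finger factor Plagl1 (-1.59), Angptl7 (-1.57) and the claudin Cldn15 (-1.56). None of these 7 had a called interaction, with adjusted p between 0.141 and 0.879. Replicate 2 was the highest TGFb library for 11 of the 12; for Angptl7, at 0.070, 0.38 and 0.39 FPKM with TGFb against 2.46, 3.3 and 2.59 FPKM with vehicle, replicates 2 and 3 were nearly equal.

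**Figure D3:**
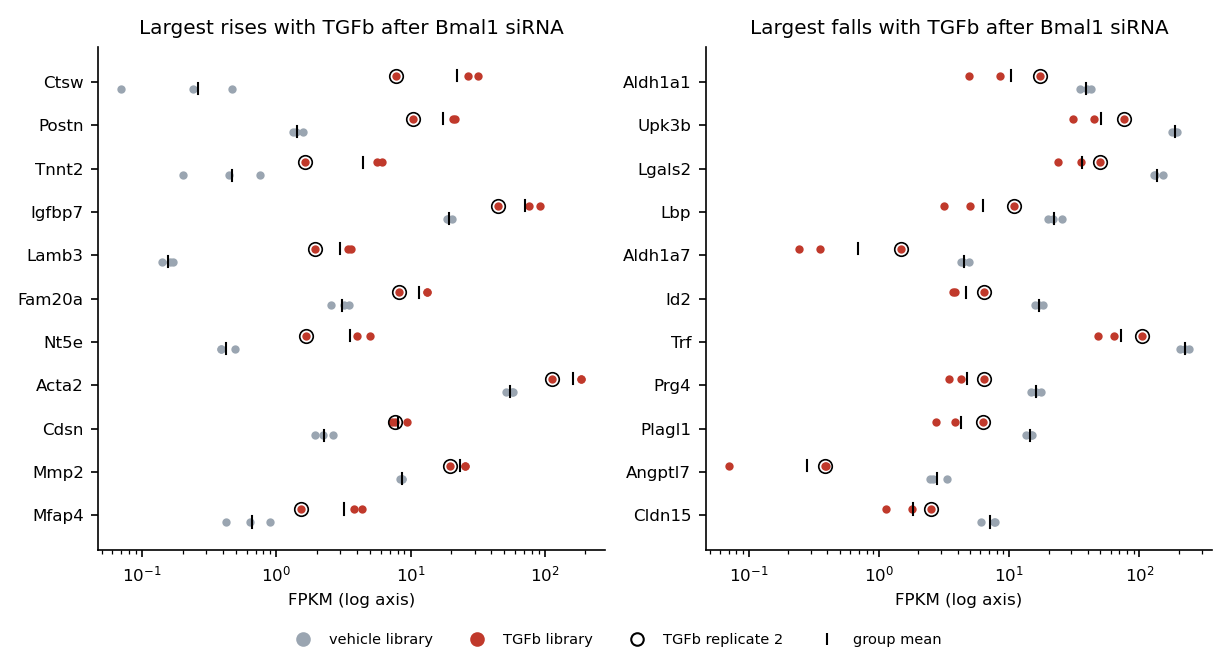
FPKM (x axis, log scale) in each of the 6 Bmal1 siRNA libraries for 11 of the 12 genes with the largest rise and 11 of the 12 with the largest fall; points are libraries, black ticks are arithmetic means of 3, and a ring marks TGFb replicate 2. No gene's groups overlap, and for most genes the ringed point lies nearest to the vehicle libraries.

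Components of the pathway itself changed unevenly. Of 12 tested genes for TGFb ligands, latency proteins and activators, 6 rose and 2 fell (over all genes tested 8.9% rose and 10.1% fell), with a median log2 change of 0.11 against 0.0035 for all genes tested and 0.64 for the same list in control cells. The number that rose was 3 when TGFb replicate 1, TGFb replicate 3 or vehicle replicate 2 was left out. Ltbp1, which stores latent TGFb in the matrix, stood at 17.9, 16.1 and 15.5 FPKM with vehicle and 45.5, 26.2 and 39.8 FPKM with TGFb, a rise of 1.09 (SE 0.15, adjusted p = 0.000314) near the control change of 1.38 (interaction adjusted p = 0.386). Ltbp2 rose by 0.78, less than in control cells (2.14, interaction adjusted p = 0.00139). The ligand genes Tgfb2 and Tgfb3 fell: Tgfb3 stood at 39.1, 40.6 and 40.2 FPKM with vehicle and 15.9, 26.5 and 18.1 FPKM with TGFb (-0.98, adjusted p = 0.000227), and Tgfb2 changed by -0.96 (adjusted p = 0.000678). Their control changes were -0.93 and -0.97, and the interactions were -0.06 (SE 0.18) and 0.01 (SE 0.20). Tgfb1 rose by 0.16 (adjusted p = 0.0207), a call that was lost on leaving out TGFb replicate 1 or 3 or vehicle replicate 2.

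Of 13 tested receptor and Smad genes, 1 rose and 3 fell. The accessory receptor Tgfbr3, or betaglycan, stood at 12.7, 13.4 and 12.6 FPKM with vehicle and 6.38, 8.99 and 5.65 FPKM with TGFb (-0.82, SE 0.12, adjusted p = 0.000479), a smaller fall than in control cells (-1.75, interaction adjusted p = 0.0029). Smad9, of the BMP branch, fell by 0.53 (adjusted p = 0.000262), with TGFb libraries at 1.13, 1.07 and 1.07 FPKM and vehicle libraries at 1.91, 2.17 and 1.95 FPKM, so that replicate 2 lay with the other TGFb libraries. The co-receptor Eng, endoglin, rose by 0.27, and the activin receptor Acvr1b fell by 0.44, a call lost on leaving out TGFb replicate 3. The signalling core did not pass the test: Smad2 (0.00), Smad3 (-0.13), Smad4 (0.09), Tgfbr1 (-0.12) and Tgfbr2 (0.14) had adjusted p between 0.102 and 0.995.

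Inhibitors that the pathway induces against itself mostly changed less than in control cells. Of 13 tested, 7 rose and 1 fell after Bmal1 siRNA (median 0.19), against 10 and 1 in control cells (median 0.61; over all genes 16.4% rose and 29.1% fell there). The interaction was called for 8, all lower, against 5.52% of all genes called lower. Pmepa1, which sequesters receptor SMADs (chr2:173224458-173276533, minus strand), stood at 15.6, 15.7 and 15.4 FPKM with vehicle and 42.8, 19.2 and 34.9 FPKM with TGFb, against a mean of 157 FPKM in control cells with TGFb. Replicate 2 lay just above the vehicle libraries. The log2 rise of 0.93 (SE 0.19, adjusted p = 0.00452) compared with 3.24 in control cells (interaction -2.3, adjusted p = 0.000181). Ldlrad4, of the same family, rose by 0.80 against 2.37 (interaction adjusted p = 0.000325). The inhibitory Smad7 stood at 4.11, 4.09 and 4.51 FPKM with TGFb and 4.15, 5.22 and 5.44 FPKM with vehicle, so that the groups overlapped, and it did not pass the test (-0.18, adjusted p = 0.149); its control change was 0.83 (interaction adjusted p = 0.000148). Skil, a SMAD co-repressor, did not pass either (0.18, against 1.56, interaction adjusted p = 5.62e-05). Smad7 and Skil were chosen after their values were seen. The phosphatase gene Ppm1a (0.27) and the co-repressor Tgif1 (0.48) rose, and Smad6 fell by 0.57 (adjusted p = 0.00115).

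**Figure D4:**
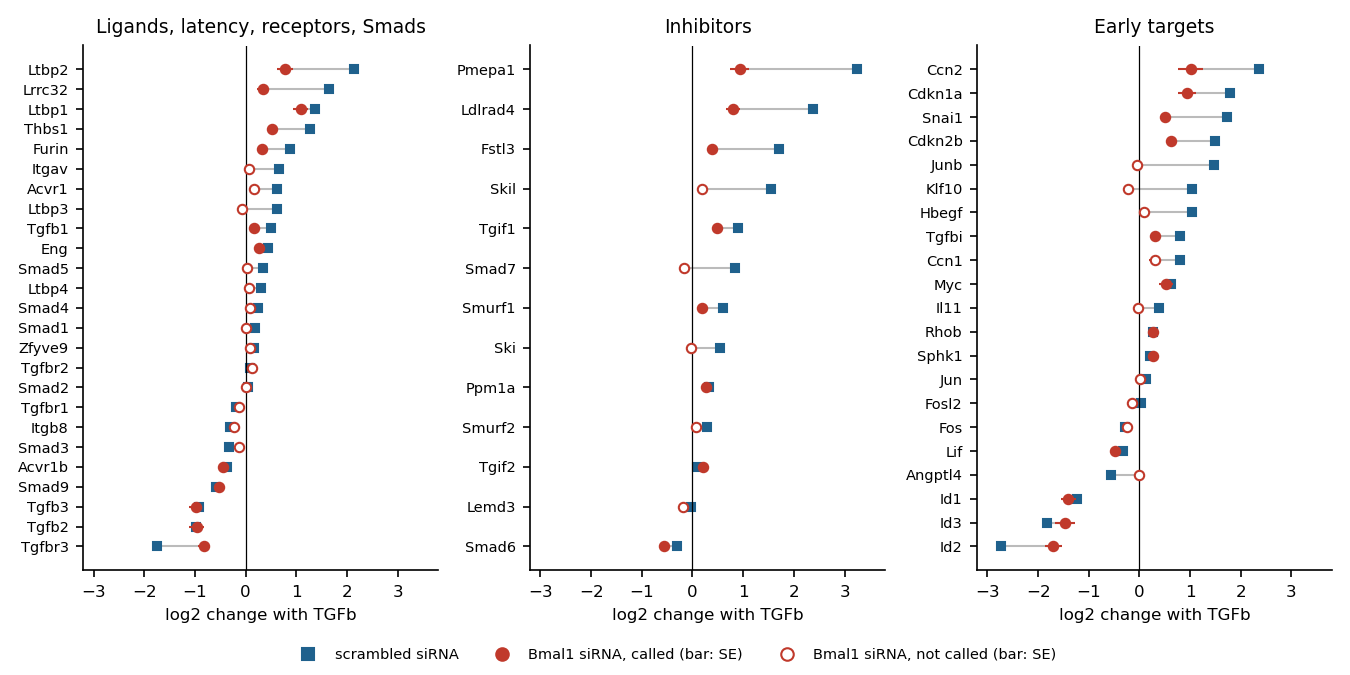
Log2 change with TGFb (x axis) after Bmal1 siRNA (circles, bars are SE, filled where called) and with scrambled siRNA (squares) for tested genes of these lists, 1 early target left out, ordered by the control change. Among the inhibitors and early targets with the largest control rises the circles lie left of the squares, while Tgfb2, Tgfb3 and Id1 show both marks at nearly the same fall.

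Of 22 tested early targets, 9 rose and 4 fell after Bmal1 siRNA (median 0.05), against 14 and 5 in control cells (median 0.51), and the interaction was called lower for 10 and higher for 2. Without TGFb replicate 3, 4 of them rose. Ccn2, the connective tissue growth factor, stood at 19.2, 17.0 and 17.9 FPKM with vehicle and 54.0, 20.8 and 45.8 FPKM with TGFb, so that replicate 2 was close to vehicle and the others far above it. Its log2 change was 1.01 (SE 0.24, adjusted p = 0.0112, 0.0625 without TGFb replicate 3) and 1.42 without replicate 2, against 2.37 in control cells. The cell cycle inhibitor Cdkn2b stood at 28.8, 30.6 and 30.9 FPKM with vehicle and 49.4, 40.5 and 51.6 FPKM with TGFb (0.62, SE 0.08, adjusted p = 0.000246), and its rise was smaller than in control cells (1.49, interaction adjusted p = 0.000388).

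Several early transcription factor genes with a control response did not pass the test here; Junb, Klf10 and Hbegf were chosen after their values were seen. Junb, an AP-1 subunit (chr8:84974484-84978718, minus strand), stood at 49.4, 46.8 and 45.8 FPKM with TGFb and 47.9, 48.0 and 51.8 FPKM with vehicle, near-identical levels, against means of 141 and 50.2 FPKM in control cells (interaction -1.52, SE 0.08, adjusted p = 9.44e-07). Klf10, a TGFb-inducible repressor, changed by -0.22 (adjusted p = 0.111) against 1.04 (interaction adjusted p = 7.52e-05). Hbegf, an EGF-family ligand, changed by 0.08 (adjusted p = 0.555) against 1.04 (interaction adjusted p = 0.00037).

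All 3 Id genes examined fell. Id1 stood at 66.4, 72.1 and 71.3 FPKM with vehicle and 19.6, 37.1 and 23.6 FPKM with TGFb (-1.4, SE 0.15, adjusted p = 8.3e-05), and Id3 at 88.4, 96.2 and 94.7 FPKM and 23.5, 51.8 and 29.3 FPKM (-1.47, SE 0.19, adjusted p = 0.000262). Their control changes were -1.23 and -1.83, and neither interaction was called (-0.17, adjusted p = 0.653, and 0.36, adjusted p = 0.405). Among 12 tested BMP-axis genes 4 rose and 2 fell. The BMP antagonist Grem1, gremlin, rose from 28.4, 22.7 and 22.5 FPKM to 65.2, 38.0 and 50.9 FPKM (1.01, SE 0.15, adjusted p = 0.000725), close to its control change of 0.92 (interaction adjusted p = 0.811). Bmper, which binds BMPs outside the cell, stood at 10.3, 10.4 and 9.43 FPKM with vehicle and 15.3, 14.4 and 15.1 FPKM with TGFb, with hardly any spread among the TGFb libraries (0.53, adjusted p = 7.25e-05). The activin subunit gene Inhba rose by 0.80 against 1.64 (interaction adjusted p = 0.0079). Bmp2, chosen after its values were seen, fell by 0.37 where control cells showed -1.65 (interaction 1.28, adjusted p = 7.74e-06).

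Collagen genes rose more often than they fell. Of 14 fibrillar and associated collagens tested, 8 rose and 2 fell (median 0.29, against 0.65 in control cells), with 7 to 8 rising whichever library was left out, and 9 had a called interaction, all lower. By library, the list's median difference from vehicle was 0.30, 0.38 and 0.33 in TGFb replicates 1, 2 and 3, so that replicate 2 was not the lowest. Col8a2, a network collagen of sheets, stood at 6.45, 7.5 and 6.99 FPKM with vehicle and 15.3, 12.8 and 15.0 FPKM with TGFb (0.94, SE 0.08, adjusted p = 2.15e-05), against 2.4 in control cells. The type V chains Col5a1, Col5a2 and Col5a3, which set the width of collagen fibrils, rose by 0.77, 0.57 and 0.60, against 1.6, 1.37 and 1.32. Col5a2 stood at 93.5, 103 and 99.4 FPKM with vehicle and 153, 140.3 and 147 FPKM with TGFb.

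The following collagens were chosen after their values were seen. Col1a2, the second chain of type I collagen, rose by 0.34 (adjusted p = 0.00591), and Col1a1, the first chain, by 0.25 (adjusted p = 0.0137) from a vehicle mean of 2905 ± 37.5 FPKM to 3457 ± 226 FPKM (SD, n = 3); the Col1a1 call was lost on leaving out TGFb replicate 1 or 3 or vehicle replicate 2 (adjusted p 0.0539 to 0.0742) and after quantile normalization (log2 change 0.08 and adjusted p = 0.509). Col3a1, the main chain of type III collagen, did not pass the test (0.22, adjusted p = 0.512), with TGFb libraries at 126, 228 and 157 FPKM overlapping vehicle at 116, 159 and 157 FPKM. Type VI collagen was divided: Col6a3 rose from 0.22, 0.20 and 0.23 FPKM to 1.08, 0.65 and 1.05 FPKM (0.66, adjusted p = 0.000948), while Col6a1 fell by 0.57 (adjusted p = 0.00509), against a control change of -0.80.

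Other matrix genes moved in both directions. Of 14 matricellular and adhesive glycoprotein genes, 7 rose and 5 fell, with 7 rising whichever library was left out; the median was 0.21 here and 0.20 in control cells. Vcan, the proteoglycan versican, stood at 11.1, 8.98 and 9.51 FPKM with vehicle and 29.9, 17.0 and 22.5 FPKM with TGFb (1.12, adjusted p = 0.000304, against 1.66). Tenascins fell: Tnxb stood at 1.18, 1.38 and 1.39 FPKM with vehicle and 0.13, 0.33 and 0.21 FPKM with TGFb (-0.92, adjusted p = 4.33e-05), and Tnc at 27.9, 27.2 and 26.5 FPKM and 18.4, 16.2 and 17.0 FPKM (-0.63, adjusted p = 0.000147). The control change of Tnc was -0.09, and its interaction was called (-0.54, adjusted p = 0.00554). Fibronectin (Fn1), chosen after its values were seen, fell by 0.36 (adjusted p = 0.00801), and its control change was -0.09 (interaction adjusted p = 0.145).

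Of 11 elastic fibre and microfibril genes, 5 rose whichever library was left out, and none fell by the adjusted limma test (1 at an unadjusted p under 0.05). Their median was 0.04 against 0.82 in control cells, and 7 had a called interaction, all lower. Fbn1, fibrillin 1, rose from 2.12, 2.11 and 2.38 FPKM to 4.87, 3.0 and 4.98 FPKM (0.70, SE 0.13, adjusted p = 0.00292), against 2.46 in control cells, and Fbln2, fibulin 2, from 354, 361 and 369 FPKM to 494, 431 and 488 FPKM (0.38 against 0.86). The collagen and elastin crosslinker Lox, chosen after its values were seen, stood at 233, 251 and 252 FPKM with vehicle and 281, 230.3 and 248 FPKM with TGFb, with overlap (0.04, adjusted p = 0.761, against 1.2, interaction adjusted p = 5.62e-05). Among 25 collagen-processing genes 6 rose and 1 fell, or 6 fell without TGFb replicate 2; Plod1, a lysyl hydroxylase, rose by 0.46 against 0.51 in control cells (interaction adjusted p = 0.69), and Bmp1, the procollagen C-proteinase, by 0.39. Of 22 proteases and their inhibitors 7 rose and 7 fell, 4 and 4 without TGFb replicate 3. Mmp14 rose by 0.37, and the stromelysin gene Mmp3 stood at 1.69, 1.85 and 2.06 FPKM with vehicle and 0.11, 0.34 and 0.28 FPKM with TGFb (-1.21, SE 0.08, adjusted p = 8.62e-06).

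Of 25 contractile genes tested, 12 rose and 2 fell (median 0.20, against 0.39 in control cells), 15 rose without TGFb replicate 2 and 7 without replicate 3. Tagln, or SM22, stood at 36.3, 34.0 and 35.0 FPKM with vehicle and 100.4, 56.0 and 104 FPKM with TGFb (1.23, SE 0.18, adjusted p = 0.000524), near its control change of 1.47 (interaction -0.24, SE 0.25). Csrp2, a LIM protein of smooth muscle, stood at 23.2, 24.8 and 25.3 FPKM and 35.6, 32.5 and 35.2 FPKM (0.48, adjusted p = 9.58e-05), and rose less than in control cells (1.43, interaction adjusted p = 1.7e-05). Tropomyosin 1 (Tpm1) rose by 0.41. Of 12 integrin genes 4 rose and 2 fell, with Itgb5 rising by 0.56 and Itga1 falling by 0.67; 2 rose without TGFb replicate 1 or 3 or vehicle replicate 1.

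Of 17 transcription factor genes of the epithelial-mesenchymal transition and the Runx family, 7 rose and 1 fell. Runx1 rose from 6.58, 5.63 and 5.55 FPKM to 13.3, 8.56 and 12.7 FPKM (0.84, SE 0.12, adjusted p = 0.000622), less than in control cells (2.45, interaction adjusted p = 0.000112), and so did Snai1 (0.50 against 1.74, interaction adjusted p = 0.000124). Snai2, by contrast, stood at 26.7, 28.1 and 27.3 FPKM and 42.5, 32.6 and 40.8 FPKM, and its rise of 0.47 (adjusted p = 0.00209) did not differ detectably from the control change of 0.28 (interaction adjusted p = 0.302). The chromatin protein gene Hmga2 rose by 1.18, to 29.1, 11.9 and 23.4 FPKM, replicate 2 being the lowest TGFb library. N-cadherin (Cdh2) stood at 38.9, 36.1 and 35.6 FPKM and 54.8, 49.4 and 51.4 FPKM (0.48, adjusted p = 8.3e-05), and the connexin Gja1 fell by 0.83.

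Growth factor signalling genes fell more often than they rose. Of 29 tested, 13 fell and 5 rose (median -0.18). Igf2 stood at 555, 581 and 568 FPKM with vehicle and 306, 405 and 352 FPKM with TGFb (-0.69, SE 0.09, adjusted p = 0.000236), and the FGF receptor Fgfr2 fell by 0.77. The PDGF receptors went opposite ways: Pdgfrb, a marker of stellate cells, rose from 11.7, 11.2 and 10.3 FPKM to 17.9, 14.8 and 15.4 FPKM (0.50, adjusted p = 0.000314), while Pdgfra fell from 45.7, 42.9 and 40.7 FPKM to 17.1, 31.3 and 17.7 FPKM (-0.99, adjusted p = 0.00138). Both changes were smaller than in control cells (1.14 and -1.91, interaction adjusted p = 0.000779 and 0.0207, the latter 0.0523 without vehicle replicate 3). The PDGF ligand gene Pdgfb, chosen after its values were seen, rose from 5.99, 7.87 and 7.6 FPKM to 13.1, 10.9 and 15.3 FPKM (0.78 against 2.59).

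Acute-phase and complement genes showed the deepest falls of the lists examined. Of 7 tested, 6 fell, and 0 rose at either an adjusted or an unadjusted p under 0.05 by limma (median -1.40, against -2.08 in control cells). The list's median difference from vehicle was -2.15, -0.74 and -1.30 in TGFb replicates 1, 2 and 3. C3 stood at 71.3, 79.0 and 81.9 FPKM with vehicle and 16.4, 45.9 and 25.6 FPKM with TGFb (-1.49, SE 0.26, adjusted p = 0.00188), against -1.78 in control cells, and C4b and Lbp fell by 1.04 and 1.80. Of 12 quiescence and retinoid genes of stellate cells, 4 fell and 1 rose, and of 13 mesothelial and portal fibroblast markers, 6 fell and 4 rose. Among those that fell, Gpm6a went from 56.3, 65.1 and 60.4 FPKM to 14.9, 33.6 and 21.1 FPKM (-1.42, adjusted p = 0.000678) and Upk1b from 68.8, 73.9 and 75.0 FPKM to 37.1, 45.1 and 40.4 FPKM (-0.82, adjusted p = 4.33e-05). The members that rose are not named in this paragraph, and these falls do not stand for either list. The small proteoglycan Dcn, decorin, stood at 330.1, 423 and 417 FPKM and 97.2, 297 and 153 FPKM (-1.23, adjusted p = 0.0124, 0.0535 without TGFb replicate 3 and 0.0508 without vehicle replicate 2).

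Some defining markers of stellate cells were present and others were not. Of 22 markers of quiescent stellate cells, 10 were under 1 FPKM in every library, and the sum ran from 345 to 601 FPKM with TGFb and from 654 to 749 FPKM with vehicle. Hand2 stood between 89.3 and 118 FPKM in the 6 libraries and Lhx2 between 13.4 and 15.3 FPKM, and Pdgfrb, Dcn, Col1a1 and Acta2 stood at the levels given above. Desmin (Des) stood near 1 FPKM, with means of 0.883 FPKM with TGFb and 1.03 FPKM with vehicle, while the 10 low markers, Gfap, Pparg, Ngfr, Rgs5, Hgf, Colec10, Colec11, Rarb, Crabp1 and Aldh1a2, did not exceed 0.42 FPKM in any library; Reln and Lrat were not analysed here. The mesothelial factor Wt1 stood between 19.2 and 30.8 FPKM. Summed levels of 18 mesothelial and portal markers ran from 821 to 924 FPKM with TGFb and from 980.1 to 1034 FPKM with vehicle, and 5 of them were under 1 FPKM in every library. Of 10 hepatocyte markers 6 were under 1 FPKM in every library, and the sum, 63.1 to 119 FPKM with TGFb and 217 to 252 FPKM with vehicle, rested largely on transferrin; its part in the results was not tested. Of 11 cholangiocyte markers 6 were under 1 FPKM, and the sum (106 to 190 FPKM with TGFb, 82.7 to 94.1 FPKM with vehicle) rested largely on osteopontin (Spp1). Of 14 endothelial markers 10 and of 8 leukocyte markers 6 were under 1 FPKM, with sums of 11.4 to 17.2 and 3.51 to 4.51 FPKM under TGFb and 14.2 to 18.7 and 3.90 to 4.43 FPKM under vehicle. Markers absent from the deposited table are not counted in these numbers. The lists held 20 hepatocyte, 13 cholangiocyte, 16 endothelial, 18 leukocyte, 24 quiescent stellate and 19 mesothelial and portal markers. Fewer cells of a kind and less RNA per cell cannot be told apart in such bulk samples.

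Amino acid supply genes driven by ATF4, the transcription factor of the integrated stress response, rose together. Of 29 tested, 22 rose, with 19 to 23 rising whichever library was left out, and 0 fell by the adjusted limma test (1 at an unadjusted p under 0.05). The median was 0.36, against 0.62 in control cells, where 25 rose, and 12 had a called lower interaction. By library the median difference from vehicle was 0.43, 0.25 and 0.39 in TGFb replicates 1, 2 and 3 and between -0.01 and 0.03 in vehicle libraries. Cth, cystathionine gamma-lyase, stood at 3.41, 3.45 and 3.32 FPKM with vehicle and 7.13, 6.93 and 8.5 FPKM with TGFb (0.95, SE 0.09, adjusted p = 4.52e-05). The pseudokinase gene Trib3 stood at 40.7, 48.2 and 45.6 FPKM and 78.0, 66.7 and 77.1 FPKM (0.71, adjusted p = 6.27e-05), and the mitochondrial folate enzyme gene Aldh1l2 at 33.8, 37.7 and 37.1 FPKM and 62.3, 54.8 and 59.1 FPKM (0.68, adjusted p = 0.000184). Asns, asparagine synthetase, stood at 139, 148 and 143 FPKM and 211, 179 and 211 FPKM (0.47, adjusted p = 0.00021). Psat1, a serine synthesis enzyme gene chosen after its values were seen, rose by 0.42 (adjusted p = 0.000629), and its control change was 0.17 (interaction adjusted p = 0.0748).

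Promoters of this list were searched for the element that ATF4 shares with C/EBP factors, TGATGNAA, on both strands, a motif chosen after the list's result was seen. RefSeq promoters of GRCm38.p6 were used, each running from 250 bases before to 50 after the gene start. Of all 32851 promoters 3.97% held it, and so did 10 of the 31 promoters of the listed genes (32.3%). These belonged to 10 of the 25 listed genes with an entry (40.0%). The stretches around the match are shown for 5 of these 10 genes, chosen after their values were seen, so that the element can be read in its setting. They are given 5′ to 3′ on the gene's strand with the element in capitals. A match describes these letters only and shows no binding. The list was chosen as ATF4 targets and amino acid supply genes, so its share of matches describes that choice and not a response to TGFb.
Asns (chr6:7693210-7693257, minus strand): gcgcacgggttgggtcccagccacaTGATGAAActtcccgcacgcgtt
Chac1 (chr2:119351024-119351081, plus strand): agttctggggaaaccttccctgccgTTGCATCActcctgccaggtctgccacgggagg
Nupr1 (chr7:126625548-126625605, minus strand): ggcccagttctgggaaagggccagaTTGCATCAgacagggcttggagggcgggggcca
Pycr1 (chr11:120643819-120643876, minus strand): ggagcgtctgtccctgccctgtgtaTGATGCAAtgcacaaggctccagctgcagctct
Slc7a11 (chr3:50443628-50443704, minus strand): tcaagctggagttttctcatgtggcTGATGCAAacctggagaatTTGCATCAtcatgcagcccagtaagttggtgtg

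The 5 genes rose to different extents, and all but Chac1 kept their call whichever library was left out. Slc7a11, the cystine transporter, whose stretch holds 2 matches, stood at 1.37, 1.54 and 1.29 FPKM with vehicle and 2.93, 2.08 and 2.62 FPKM with TGFb (0.56, SE 0.11, adjusted p = 0.00284). Pycr1, of proline synthesis, stood at 70.4, 82.3 and 84.8 FPKM and 101, 105 and 111 FPKM (0.42, adjusted p = 0.00176), and the stress-induced Nupr1 at 73.2, 63.7 and 66.9 FPKM and 92.2, 81.1 and 92.4 FPKM (0.38, adjusted p = 0.00253). Chac1, a glutathione-degrading enzyme, rose by 0.25 (adjusted p = 0.0233), a call that was lost on leaving out any of TGFb replicates 1 and 3 and the 3 vehicle libraries (adjusted p 0.0531 to 0.106). Of 24 genes of endoplasmic reticulum folding and the unfolded protein response 2 rose, and 0 fell by the adjusted limma test (2 at an unadjusted p under 0.05). Without TGFb replicate 2, 4 rose and 4 fell, near the shares over all genes in that fit (13.7% higher and 15.4% lower). By limma 0 rose without TGFb replicate 1, and 1 rose without TGFb replicate 3 or any 1 of the vehicle libraries.

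Cholesterol genes fell together. Of 25 tested for synthesis, uptake and efflux, 20 fell, with 17 to 21 falling whichever library was left out, and 0 rose at either an adjusted or an unadjusted p under 0.05 by limma. The median was -0.29, against -0.39 in control cells, where 21 fell. The median difference from vehicle was -0.34, -0.26 and -0.32 in TGFb replicates 1, 2 and 3. The interaction was called for 5 of the 25, 3 higher and 2 lower. The sterol desaturase gene Sc5d stood at 46.2, 45.5 and 45.1 FPKM with vehicle and 33.6, 34.3 and 33.1 FPKM with TGFb (-0.43, SE 0.04, adjusted p = 4.16e-05), with hardly any spread within a group. The cholesterol exporter gene Abca1, which LXR rather than SREBP is known to drive, fell from 2.67, 2.62 and 2.77 FPKM to 0.83, 1.19 and 0.69 FPKM (-0.96, adjusted p = 4.04e-05).

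The sterol response element TCACNCCAC was also chosen after the result was seen. On either strand, it was found in 1.24% of all promoters and in 1 of 20 promoters of the cholesterol genes (5%). This promoter belonged to 1 of the 17 listed cholesterol genes with an entry. That gene, Hmgcs1, chosen after its values were seen, fell by 0.36 (adjusted p = 0.000622), with vehicle libraries at 68.5, 71.1 and 68.4 FPKM and TGFb libraries at 53.4, 57.3 and 51.0 FPKM. Its stretch is shown for that reason, with the element in capitals.
Hmgcs1 (chr13:119690189-119690247, plus strand): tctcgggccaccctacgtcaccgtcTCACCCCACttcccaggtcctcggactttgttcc

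The count of falling glycolysis and hypoxia genes depended on single libraries and on the fit. Of 29 tested, 7 fell (median -0.38), and 0 rose at either an adjusted or an unadjusted p under 0.05 by limma. Leaving out TGFb replicate 2 gave 18 falls, leaving out vehicle replicate 1 gave 14 and scrambled TGFb replicate 1 gave 16. Only 1 fell without TGFb replicate 1, vehicle replicate 2 or vehicle replicate 3, and 2 without TGFb replicate 3. The list's median differed between the vehicle libraries themselves, at -0.26, 0.05 and 0.21 from the mean of the other vehicle libraries, and was -0.57, -0.13 and -0.40 in TGFb replicates 1, 2 and 3. After scaling to equal totals or quantile normalization 13 fell, and with array weights, which count divergent libraries less, 25 fell. Car9, the hypoxia-induced carbonic anhydrase, was called whichever library was left out, at 6.35, 9.1 and 9.34 FPKM with vehicle and 0.94, 4.56 and 2.01 FPKM with TGFb (-1.52, adjusted p = 0.00453, control change -1.54). Vegfa, chosen after its values were seen, did not pass (0.13, adjusted p = 0.209), against 1.25 in control cells (interaction -1.12, adjusted p = 2.97e-05).

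The fit of all 12 libraries called none of the 43 tested genes of the type I interferon response list after Bmal1 siRNA. Some other fits called part of the list lower. Of 43 tested, 0 were called by limma in either direction and 1 was lower at an unadjusted p under 0.05, against 33 called higher in control cells. The median was -0.21 here and 0.80 in control cells, and 19 had a called lower interaction. Isg15, a ubiquitin-like interferon product chosen after its values were seen, stood at 8.02, 12.8 and 8.62 FPKM with vehicle and 9.3, 9.63 and 10.1 FPKM with TGFb, and at 15.8, 99.1 and 32.2 FPKM in control TGFb libraries. Its interaction (-2.12, adjusted p = 0.0363) was lost in 8 of the 12 fits that left out 1 library. The list varied between libraries of 1 group: its median difference was -0.24, 0.33 and -0.07 in the Bmal1 siRNA vehicle libraries and 0.27, 1.55 and 0.65 in the control TGFb libraries. A fit of the 6 Bmal1 siRNA libraries alone called 3 of 39 of the list's genes lower. Array weights gave 8 of 43, and leaving out both second TGFb libraries, chosen after seeing the data, gave 5 of 40. Of all genes tested, these fits called 930, 2819 and 1737 lower, in that order. In these 3 fits the list's shares were therefore not above those of all genes. Adding a replicate block to the fit of the 6 Bmal1 siRNA libraries gave the list a larger lower share than all genes, as described below. The replicate numbers were not taken as pairs, so that fit is given only as an alternative.

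Of 20 tested clock genes 4 rose and 5 fell (median -0.10, against 0.18 in control cells). Nr1d1 and Nr1d2, the Rev-erb repressors, stood at 4.73, 3.91 and 4.28 and 4.11, 4.58 and 3.79 FPKM with vehicle and rose to 7.24, 5.17 and 7.12 and 6.84, 5.74 and 6.67 FPKM, by 0.49 (adjusted p = 0.00351) and 0.52 (adjusted p = 0.00224). Their control changes, 0.19 and 0.23, were not called, and neither were the interactions (adjusted p = 0.164 and 0.162). Per2 stood at 3.61, 4.06 and 4.18 FPKM and 2.55, 2.92 and 2.55 FPKM (-0.43, adjusted p = 0.00106), Per1 fell by 0.21, and the bZIP repressor gene Nfil3 rose by 0.33. Bhlhe40 and Bhlhe41, the DEC repressors, did not pass (-0.35 and -0.14, adjusted p = 0.1 and 0.39), against 1.42 and 0.79 in control cells (interaction adjusted p = 0.000148 and 0.00134). Clock (0.06), Cry1 (0.14), Per3 (-0.22), Arntl2 (-0.02), Dbp (-0.20) and Tef (-0.28) did not pass the test, and nor did Wee1 (-0.07) and Csnk1d (0.00). Ciart and Cry2 fell and Csnk1e rose, but each of these calls was lost without TGFb replicate 1, TGFb replicate 3, vehicle replicate 2 or vehicle replicate 3 (adjusted p 0.0595 to 0.204). The call of Cry2 was lost in 11 of the 12 fits that left out 1 library and that of Ciart in 8. Of the 20 genes, 2 fell without any 1 of those 4 libraries and 8 without TGFb replicate 2. The E-box CACGTG was found in 6 of 23 promoters of clock genes (26.1%) and in 5 of 20 promoters of the cholesterol genes (25%), against 7.15% of all promoters. It was in 3 of 31 promoters of the ATF4 list (9.68%) and 0 of 13 of the TGFb inhibitors. The SMAD element CAGAC was in 39.1%, 50%, 41.9% and 46.2% of promoters of the clock, cholesterol, ATF4 and inhibitor lists, against 49.6% of all promoters.

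**Figure D5:**
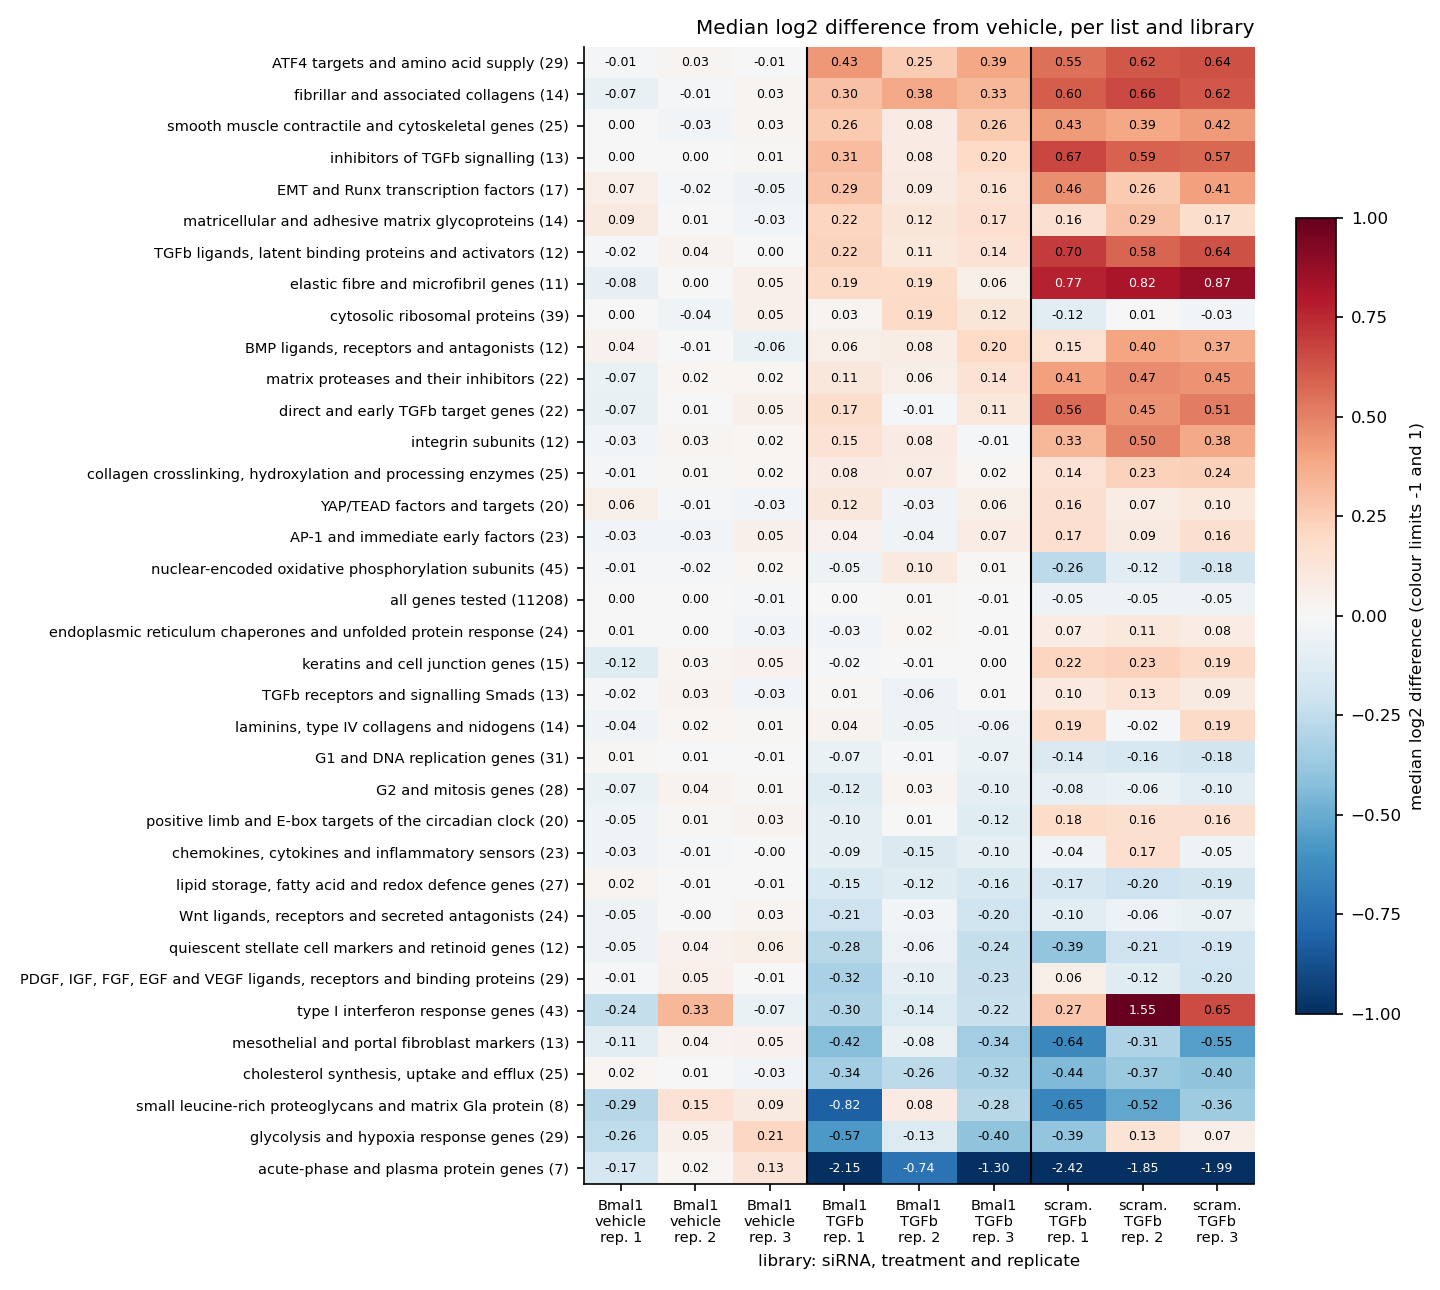
Median log2 difference from vehicle for each list with at least 7 tested genes (rows, number tested in parentheses) in each library (columns); TGFb libraries are compared with the mean of their own vehicle libraries, and a vehicle library with the mean of the other two. ATF4, collagen and cholesterol rows have the same sign in all TGFb columns, while the interferon row is below 0 in the TGFb columns with Bmal1 siRNA and above 0 in those with scrambled siRNA.

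Some large changes were nearly the same with both siRNAs. Among called genes with a log2 change of at least 1 in size, the smallest interactions were those of the proton pump subunit gene Atp6v0a4 (0.01), Ror1 (-0.02), Car9 (0.02), Gpc3 (0.04), Angptl7 (0.06) and Podxl (0.08), all of which fell. Atp6v0a4 stood at 2.82, 2.81 and 2.92 FPKM with vehicle and 0.33, 0.86 and 0.43 FPKM with TGFb (-1.34, SE 0.11, adjusted p = 2.15e-05). Podxl, podocalyxin, stood at 35.1, 35.3 and 33.6 FPKM and 13.9, 19.8 and 14.8 FPKM (-1.07, adjusted p = 5.87e-05, interaction SE 0.16). These genes were picked for a small interaction, so its size is a description.

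The 94 genes whose change lay beyond that of control cells split into 51 higher and 43 lower; 58 were not called in control cells, 34 were called there in the opposite direction and 2 in the same. Steap1, a gene of the metalloreductase family, stood at 26.0, 23.9 and 24.7 FPKM with vehicle and 40.1, 35.3 and 37.9 FPKM with TGFb (0.58, SE 0.07, adjusted p = 0.000147), without overlap and with its control change at -0.08 (interaction 0.67, adjusted p = 0.000798). Igf1 stood at 5.87, 7.49 and 7.17 FPKM and 3.55, 3.97 and 3.89 FPKM (-0.70, adjusted p = 0.00115), against 0.30 in control cells (interaction -1.0, adjusted p = 0.00176). Spsb1, a ubiquitin ligase adaptor gene, fell from 21.9, 21.8 and 22.1 FPKM to 15.5, 18.2 and 16.0 FPKM (-0.39, adjusted p = 0.000622), where control cells showed a rise of 0.78 (interaction -1.17, adjusted p = 7.74e-06). Dusp5, an ERK phosphatase gene, did likewise (-0.40 against 0.63, interaction adjusted p = 7.52e-05).

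At the other end, the growth factor gene Ptn, pleiotrophin, stood at 45.7, 50.8 and 49.5 FPKM with vehicle and 10.7, 40.3 and 16.9 FPKM with TGFb, and at 3.95, 4.6 and 4.85 FPKM in control TGFb libraries. Its fall of 1.27 (adjusted p = 0.0113, 0.0563 without TGFb replicate 3) compared with -3.45 in control cells (interaction 2.18, adjusted p = 0.00592). Krt14, a basal keratin, rose from 20.5, 19.1 and 20.8 FPKM to 43.2, 26.8 and 45.9 FPKM (0.87, adjusted p = 0.00281) but reached 132, 170.0 and 144 FPKM in control TGFb libraries (interaction -2.34, adjusted p = 7.07e-05).

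Across 504 called genes with a log2 change of at least 0.5 in size, the change in TGFb replicate 2 was a median of 49.0% of the mean change in replicates 1 and 3 (quartiles 37.1% and 65.0%). It was below 50% for 260 genes and at least 90% for 21. Among the latter, chosen after their values were seen, were the heparan sulfatase Sulf2, at 25.4, 25.9 and 28.0 FPKM against 9.66, 12.1 and 12.4 FPKM (96.4%), and the anti-angiogenic serpin Serpinf1, at 192, 191 and 215 FPKM against 78.6, 92.6 and 95.0 FPKM (92.7%). Fzd1, a Wnt receptor gene, stood at 9.53, 10.2 and 9.95 FPKM with vehicle and 14.7, 16.7 and 14.6 FPKM with TGFb, with replicate 2 the highest library (134%; 0.58, adjusted p = 0.000117).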

How the data were processed

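RNA from 12 libraries, 3 in each group of siRNA and treatment, was isolated with 1 of 2 kits chosen by RNA abundance, samples of low RNA integrity were discarded, and libraries were built at BGI, per the labels' protocols; the kit of each sample is not stated. The authors deposited 1 table of FPKM values per gene and library, per the file headers, while the file's name calls them RPKM; the same test serves both. The submitters' processing notes list the build mm10 and the tools RSEM, DESeq2, Bowtie2 2.2.5 and HISAT2 2.0.4, with no roles; aligner settings and the counting step are not stated. No counts are used here, so the depth is unknown and no counting interval is given; FPKM totals ran from 445472 to 483957 per library. Lines without an identifier (555 of 16290, at most 1.464% of FPKM) and 15 repeated identifiers were left out. Coordinates and exon overlaps are from GENCODE M21 on mm10.

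A limma 3.58.1 model (R 4.3.3) with an intensity trend was fitted to log2(FPKM + 1) of all 12 libraries, with 4 group means, 8 residual and 4.99 prior degrees of freedom, over genes whose mean reached 0.5 FPKM. Tests were two-sided with Benjamini-Hochberg adjustment over all genes tested. The interaction is the change after Bmal1 siRNA minus that with scrambled siRNA. The log2(FPKM + 1) scale understates the change of low genes. The code was tested on simulated data. The members and the 40 gene lists (901 genes) were chosen with earlier results of these data known.

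Named genes were Arntl, any clock gene, the 12 largest called rises and falls without overlap whose higher group averaged 1 FPKM or more, the 6 smallest interactions among called changes of at least 1, the 5 per direction with a change beyond control, the 5 per direction with the largest interaction, and up to 4 called members per list by smallest p (up to 2 where none was called). A further 48 genes were chosen after their values were seen, among them Ccn2, Tgfb1, the core Smad and receptor genes, Slc7a11, Pycr1, Nupr1, Chac1, Hand2, Lhx2 and Wt1; others are marked in the text. Some genes that the rule or this choice named are not reported here. Of the 234 named genes, 72 share exon bases with another gene, 26 of them with a protein-coding one (among these Lgals2, Trf, Prg4, Atp6v0a4, Fbn1, Nr1d1, Eng, Ldlrad4, Itga1, Igf2, Fgfr2, Aldh1l2, Junb, Sulf2, Srebf1, Ccnd1, Fgf2 and Dbp), and use of strand is not stated, so reads there cannot be told apart.

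Alternatives were pseudocounts of 0.1 and 5, no filter or a filter at 2 FPKM, 3 other scalings, a replicate block, limma without trend, with robust fitting or with array weights, a 2-fold minimum, a fit of the 6 Bmal1 siRNA libraries alone, and leaving out each library in turn.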

Additional observations from a re-analysis of the deposited data

Results flagged for a closer look

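The TGFb responses of the 2 siRNA groups differed, by the interaction test in limma, for 20 genes picked by the size of that interaction or for a change beyond control. The values are log2 interactions, the change after Bmal1 siRNA minus the change with scrambled siRNA, and being picked for size they are a description. What lies behind them was not tested.

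Among genes with a larger rise after Bmal1 siRNA, the interaction was 0.67 for the metalloreductase-family gene Steap1, 0.67 for Rep15, 0.72 for the histone gene Hist1h3g, 0.60 for Zfp503 and 0.54 for the neuropeptide Y receptor gene Npy1r. Hist1h3g and Rep15 lay under 1.2 FPKM in all 6 Bmal1 siRNA libraries, and reads of Hist1h3g may be shared with near-identical histone genes. The TGFb calls of Rep15, Zfp503, Npy1r and Hist1h3g were lost without TGFb replicate 3 (adjusted p 0.0647, 0.0975, 0.0687 and 0.0784), and each also without at least 1 of the vehicle libraries.

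Among genes with a larger fall, it was -1.17 for Spsb1, -1.16 for the growth factor gene Fgf2, -1.1 for Rnf213, -1.02 for Dusp5 and -1.0 for Igf1. Fgf2 stood at 0.55, 0.91 and 1.06 FPKM with vehicle and 0.24, 0.24 and 0.44 FPKM with TGFb, and Rnf213 at 19.9, 24.0 and 18.8 and 9.64, 13.6 and 9.4 FPKM, without overlap. The TGFb call of Rnf213 was lost without TGFb replicate 1 or 3 or vehicle replicate 2 (adjusted p 0.0734 to 0.0902) and that of Fgf2 without any TGFb library, vehicle replicate 2 or 3 or scrambled vehicle replicate 3 (0.0525 to 0.151). Of the fits that left out 1 library, the interaction was lost in 10 of 12 for Rnf213, in 8 for Hist1h3g and in 7 for Usp18.

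The falls seen in control cells were smaller after Bmal1 siRNA for Ptn (2.18), the matrix Gla protein gene Mgp (1.95), Vstm2a (1.73), haptoglobin (Hp, 1.62) and the chemokine Cxcl1 (1.55). Mgp stood at 14.0, 17.7 and 19.0 FPKM with vehicle and 7.38, 23.5 and 12.1 FPKM with TGFb, with TGFb replicate 2 above every vehicle library. The rises seen in control cells were smaller for the interferon-induced Oasl2 (-2.69) and Usp18 (-2.29), the apolipoprotein gene Apol9b (-2.42), whose family has near-identical members, Krt14 (-2.34) and Pmepa1 (-2.3). Oasl2 stood at 9.28, 18.3 and 10.0 FPKM with vehicle, 7.84, 8.92 and 9.23 FPKM with TGFb and 16.3, 91.4 and 34.4 FPKM in control TGFb libraries.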

How the results depend on the processing

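The number of genes called for TGFb after Bmal1 siRNA, 2128 (998 higher, 1130 lower), moved with the libraries used and with the size of change tested. Leaving out 1 library gave 1171 to 3265 genes, 491 to 1538 higher and 680 to 1727 lower. Array weights gave 5513 (2694 higher, 2819 lower), and leaving out both second TGFb libraries, chosen after seeing the data, gave 3246 (1509 and 1737). With array weights 23 of 39 ribosomal protein genes rose and 15 of 28 G2 and mitosis genes fell. These shares were larger than those of all 11208 genes (2694 higher and 2819 lower). In the same fit 11 of 45 oxidative phosphorylation genes fell and 7 rose, shares not above those of all genes. Tested against a 2-fold minimum, 2 genes were called, Ctsw and Postn, 2 higher and 0 lower (12 higher and 30 lower at an unadjusted p under 0.05 by limma). Interaction calls, 1612, ran from 991 (without vehicle replicate 2) to 1872 on leaving out 1 library, and came to 3723 with array weights and 0 with the 2-fold minimum (8 higher and 55 lower unadjusted). The Arntl difference under vehicle was -0.21 with a pseudocount of 5. Same-numbered TGFb and vehicle libraries with Bmal1 siRNA deviated with correlations of 0.370, 0.173 and 0.040. Same-numbered TGFb libraries of the 2 siRNAs had correlations of 0.475, 0.299 and -0.051, and Bmal1 siRNA vehicle and scrambled TGFb libraries 0.419, 0.222 and 0.203. Only the last of the 6 pairs of groups had every correlation over 0.1, and no label says what a number shares, so the numbers were not taken as pairs. The replicate block gave 2556 genes and 1893 interactions. It called 19 of 29 glycolysis and hypoxia genes lower with all 12 libraries and 18 with the 6 Bmal1 siRNA libraries, and 1 of 43 and 13 of 39 interferon genes lower. Of all genes tested, these fits called 1340 and 1152 lower, in that order. The glycolysis and hypoxia shares in both fits were larger than those of all genes. The interferon share was larger only with the 6 Bmal1 siRNA libraries. Of 191 named genes called, 154 were called in every setting run other than the 2-fold minimum and none reversed; leaving out TGFb replicate 3 lost 35 calls and vehicle replicate 2 lost 30. Without counts, the sampling error of low genes cannot be given.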

Other observations

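Other gene groups, given as values with no explanation, changed in smaller numbers. For comparison, 8.9% of all genes tested rose and 10.1% fell, or 13.7% and 15.4% without TGFb replicate 2. Of 24 Wnt ligands, receptors and antagonists tested, 10 fell and 4 rose (median -0.18), 6 falling without TGFb replicate 3. The receptor genes Fzd5 (3.21, 3.02 and 2.98 FPKM with vehicle, 1.21, 1.6 and 1.13 FPKM with TGFb) and Fzd4 fell by 0.82 and 0.77 where Fzd1 rose. Of 27 lipid storage and redox genes 10 fell and 4 rose, 6 falling without TGFb replicate 3 or vehicle replicate 2. The glutathione transferase gene Gstm1 stood at 187, 178 and 189.7 FPKM and 76.0, 136 and 94.8 FPKM (-0.89, against -2.06 in control cells, interaction adjusted p = 0.00305), and the lipogenic factor gene Srebf1 fell by 0.25. Of 14 basement membrane genes 6 fell and 2 rose, with Lamb2 and Lama5 falling by 0.71 and 0.48. Of 8 small proteoglycan genes 3 fell and 1 rose, with 1 falling without TGFb replicate 3 or vehicle replicate 2. By limma 0 rose without TGFb replicate 1 or 3 or any 1 of the vehicle libraries. Among those that fell was Ogn, osteoglycin (11.1, 14.9 and 13.5 FPKM with vehicle, 2.58, 7.55 and 4.65 FPKM with TGFb, -1.34).

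Of 31 G1 and replication genes 4 fell and 2 rose, near the shares over all genes tested (10.1% lower and 8.9% higher). Of these 31, 2 fell without TGFb replicate 1 or 3 and 7 without replicate 2. Cyclin D1 (Ccnd1) stood at 31.1, 29.4 and 29.1 FPKM with vehicle and 10.1, 16.5 and 13.1 FPKM with TGFb (-1.14, adjusted p = 7.94e-05), a smaller fall than in control cells (-1.99, interaction adjusted p = 0.00729). The inhibitor Cdkn1a stood at 10.0, 12.4 and 15.4 FPKM and 29.9, 17.1 and 29.8 FPKM (0.94, adjusted p = 0.00254). Of 28 G2 and mitosis genes, 0 were called by limma, with 0 higher and 5 lower at an unadjusted p under 0.05, and 6 fell without TGFb replicate 2. Among 45 oxidative phosphorylation genes 2 rose and 2 fell, where 28 fell in control cells, and 9 interactions were called higher. Over all genes tested, 29.1% fell in control cells and 8.86% had an interaction called higher. Without TGFb replicate 1, TGFb replicate 3, vehicle replicate 2 or vehicle replicate 3, 1 rose and 1 fell. The number rising was 1 without scrambled TGFb replicate 3 or scrambled vehicle replicate 2 and 5 without scrambled vehicle replicate 1. Without TGFb replicate 2, 5 of the 45 fell, where 15.4% of all genes tested fell. Ribosomal protein genes had 3 of 39 higher, 0 without TGFb replicate 3 or vehicle replicate 2, and 9 after quantile normalization.

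Of 20 YAP and TEAD genes 6 rose and 2 fell, 2 rising without TGFb replicate 3. Ankrd1 stood at 21.0, 21.5 and 19.6 FPKM and 45.2, 26.7 and 43.7 FPKM (0.83, adjusted p = 0.00224). Of 23 AP-1 and immediate early genes 5 rose and 2 fell, 2 rising without TGFb replicate 1 or 3 or vehicle replicate 2, with Klf4 rising by 0.43. Of 23 chemokine and inflammation genes 6 fell and 3 rose, 2 falling without TGFb replicate 1 or vehicle replicate 3. Vcam1 fell from 109, 112 and 114 FPKM to 63.1, 94.0 and 66.6 FPKM (-0.60 against -1.48, interaction adjusted p = 0.00399). Of 15 keratin and junction genes 5 rose and 3 fell, with Krt7 falling by 1.0. Of the few tested markers of other cells, 1 of 4 hepatocyte genes rose and 2 fell, 1 of 5 cholangiocyte genes rose and 1 fell, and 0 of 4 endothelial and 0 of 2 leukocyte genes were called by limma (1 endothelial and 0 leukocyte genes at an unadjusted p under 0.05). Of 4 mitochondrially encoded and stress transcripts 1 rose.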
